A study of Mus musculus with 23 samples.

Results

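The 10 genes described here belong to oxygen-responsive sugar metabolism and were followed in mouse endothelial cells that had been cultured with plasma of different mice. The set held 9 glycolytic or hypoxia-responsive genes (Pfkfb3, Slc2a1, Hk1, Hk2, Ldha, Pgk1, Pdk1, Bnip3 and Egln3) and the gluconeogenic gene Fbp1. Members were matched by gene symbol in the array's annotation, the set having been drawn up with earlier results of these data known, and all 10 of 10 were found among the 24704 genes with a symbol, each by 1 probe set. The cells were primary aortic endothelial cells of mouse, abbreviated MAOEC, of a commercial source, labelled as strain C57BL/6J. After confluence, fetal calf serum in the medium was replaced by 10% plasma, and RNA was taken 48 h later for Affymetrix arrays. Donors of the plasma were mice without apolipoprotein E and Stabilin-2 (ApoE-Stab2-KO, 6 arrays), mice without apolipoprotein E and Stabilin-1 (ApoE-Stab1-KO, 6 arrays), mice without apolipoprotein E alone (ApoE-KO, 5 arrays) and wildtype mice (6 arrays).

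Genotype thus describes the donor of the plasma, while the cultured cells were of one kind in all 4 groups. The 3 groups of knockout donors shared the loss of apolipoprotein E, a ligand for lipoprotein clearance, and 8 weeks of Western diet. For wildtype donors no diet is stated, and against wildtype plasma the effects of donor genotype and donor diet cannot be told apart. Sex and age of the donors, and how many animals stood behind each plasma, are not stated in the labels. Nothing in the labels says that the arrays of a group came from separate cultures or donors, and p-values therefore measure the spread between these arrays, which may be technical.

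Under low oxygen, cells stabilise the hypoxia-inducible factors (HIF), which bind short DNA motifs and raise transcription of glucose transporters, glycolytic enzymes and signals for new vessels. Endothelial cells make most of their ATP from glycolysis even when oxygen is at hand, and the bifunctional enzyme encoded by Pfkfb3 sets the pace of that flux by making fructose-2,6-bisphosphate, an activator of phosphofructokinase. Fructose-1,6-bisphosphatase, encoded by Fbp1, catalyses the opposing step of gluconeogenesis, and fructose-2,6-bisphosphate inhibits it.

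Promoter sequences of the 10 members were read from RefSeq (GRCm38.p6) over 250 bases before to 50 after each transcription start, and the core HIF motif was searched as ACGTG or GCGTG on both strands. Neighbouring matches may overlap, since CACGTG holds ACGTG on each strand. Of 32851 promoters in the table, 43.8% held at least 1 match, as did 46.7% of 27025 genes in at least 1 promoter. Among the members, 11 of 14 promoters and 9 of 10 genes held a match, and Fbp1 was the gene without one. Both Pfkfb3 starts, the matched Hk1 start and the Fbp1 start are shown because these 3 genes gave the smallest F-test p-values over the groups. The strand of all 4 windows is minus, each sequence runs 5′ to 3′ along the gene, and capitals mark the motif matches.
Pfkfb3, first start, chr2:11553880-11554179: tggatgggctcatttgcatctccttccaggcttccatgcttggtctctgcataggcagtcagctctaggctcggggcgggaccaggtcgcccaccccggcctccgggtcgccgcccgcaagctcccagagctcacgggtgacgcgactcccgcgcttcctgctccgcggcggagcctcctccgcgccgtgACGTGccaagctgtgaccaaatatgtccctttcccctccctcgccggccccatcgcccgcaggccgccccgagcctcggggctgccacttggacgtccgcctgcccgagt
Pfkfb3, second start, chr2:11502041-11502340: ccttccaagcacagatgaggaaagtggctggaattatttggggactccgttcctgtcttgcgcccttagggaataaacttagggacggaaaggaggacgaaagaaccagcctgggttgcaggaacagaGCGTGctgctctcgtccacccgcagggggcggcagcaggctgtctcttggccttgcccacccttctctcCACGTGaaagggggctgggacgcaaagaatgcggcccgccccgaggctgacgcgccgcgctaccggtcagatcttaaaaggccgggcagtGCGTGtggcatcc
Hk1, second start, chr10:62340372-62340671: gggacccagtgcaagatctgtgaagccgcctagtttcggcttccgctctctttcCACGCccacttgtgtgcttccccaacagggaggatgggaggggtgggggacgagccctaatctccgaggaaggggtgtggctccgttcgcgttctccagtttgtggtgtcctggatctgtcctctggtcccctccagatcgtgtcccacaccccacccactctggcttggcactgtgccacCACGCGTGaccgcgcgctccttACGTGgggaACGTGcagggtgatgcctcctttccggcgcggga
Fbp1, chr13:62888233-62888532: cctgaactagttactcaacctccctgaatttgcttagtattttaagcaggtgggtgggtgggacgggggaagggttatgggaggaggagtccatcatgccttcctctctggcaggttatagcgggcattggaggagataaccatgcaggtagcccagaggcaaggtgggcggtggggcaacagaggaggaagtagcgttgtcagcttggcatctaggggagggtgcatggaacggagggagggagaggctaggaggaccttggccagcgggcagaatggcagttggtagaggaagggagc
The first Pfkfb3 window held 1 match, at position -60 from the start, and the second held 4 matches at 3 places. The Hk1 window held 5 matches, while the window of the other Hk1 start held none. The Fbp1 window had a GC content of 57.3%, against a median of 52.7% over all promoters, and no match. The 11 member windows with a match had GC contents between 54.7% (Egln3) and 71.7% (Bnip3). The unmatched windows of Hk1 and Pdk1 had 51.3% and 40.3%. Both spellings of the motif hold CG, and the part of GC content in the match counts was not tested. A match is a description of the letters in the window, not a site of factor binding, and a window with none says nothing about the factor. The remaining members held between 1 match (Egln3) and 7 matches (the first Ldha start) in their best window.

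The values are log2 expression after robust multi-array averaging (RMA), ran over all 25428 probe sets and 23 arrays between 2.52 and 13.9 and had a median of 4.33. Array medians were the same to 2 decimals in the 4 groups, and correlations between arrays lay between 0.992 and 0.997. The labelled cell type was checked on marker lists. The 12 endothelial markers had a mean level of 11.10 in ApoE-Stab2-KO, 11.10 in ApoE-Stab1-KO, 11.05 in ApoE-KO and 11.10 in wildtype plasma, and their summed log2 level lay between 131.4 and 133.8 on every array. The 6 hepatocyte markers, of the tissue in which Fbp1 is best known, had mean levels between 3.42 and 3.46 in the groups, and albumin (Alb) did not exceed 3.37 on any array. The smooth muscle, fibroblast, leukocyte and red cell lists had mean levels between 3.13 and 5.08. Single markers in them were high, with the smooth muscle marker Smtn between 10.12 and 10.47 and the macrophage marker Cd68 between 10.98 and 11.43 on all arrays, and their part in the results was not tested. The 4 lymphatic endothelial markers were mixed, with Lyve1 between 12.62 and 12.87, Flt4 between 9.34 and 9.87, Pdpn between 4.76 and 5.35 and Prox1 between 3.14 and 3.51. The count of markers that differed between plasmas in any comparison was 0 in each of these lists (limma, adjusted p under 0.05). At an unadjusted p under 0.05 in the F-test, which 11.9% of all genes passed, there were 2 of 12 endothelial, 2 of 6 leukocyte, 1 of 6 fibroblast and 1 of 4 lymphatic markers, and 0 of 7 smooth muscle, 0 of 6 hepatocyte and 0 of 2 red cell markers.

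Differences were tested with limma, with p-values adjusted over all 24704 genes by the Benjamini-Hochberg method, and a gene was called at an adjusted p under 0.05. Over the 4 plasmas together, the moderated F-test called 2 of the 10 members, Fbp1 (adjusted p = 0.013) and Pfkfb3 (adjusted p = 0.029), while it called 0.546% of all genes. Fbp1 was at rank 42 and Pfkfb3 at rank 98 of all genes by that p. Hk1 came next, at rank 238, with an adjusted p of 0.0892. The F-test p of the other 7 members was between 0.411 (Hk2) and 0.943 (Pdk1) after adjustment in limma. The Pfkfb3 call was lost without each of ApoE-Stab2-KO replicates 1, 2, 3, 4 and 6 or wildtype replicates 1, 2, 3 and 4 (adjusted p up to 0.0813) and with trended, robust variances (0.0642), whereas the Fbp1 call was kept without each of the 23 arrays.

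**Figure D1:**
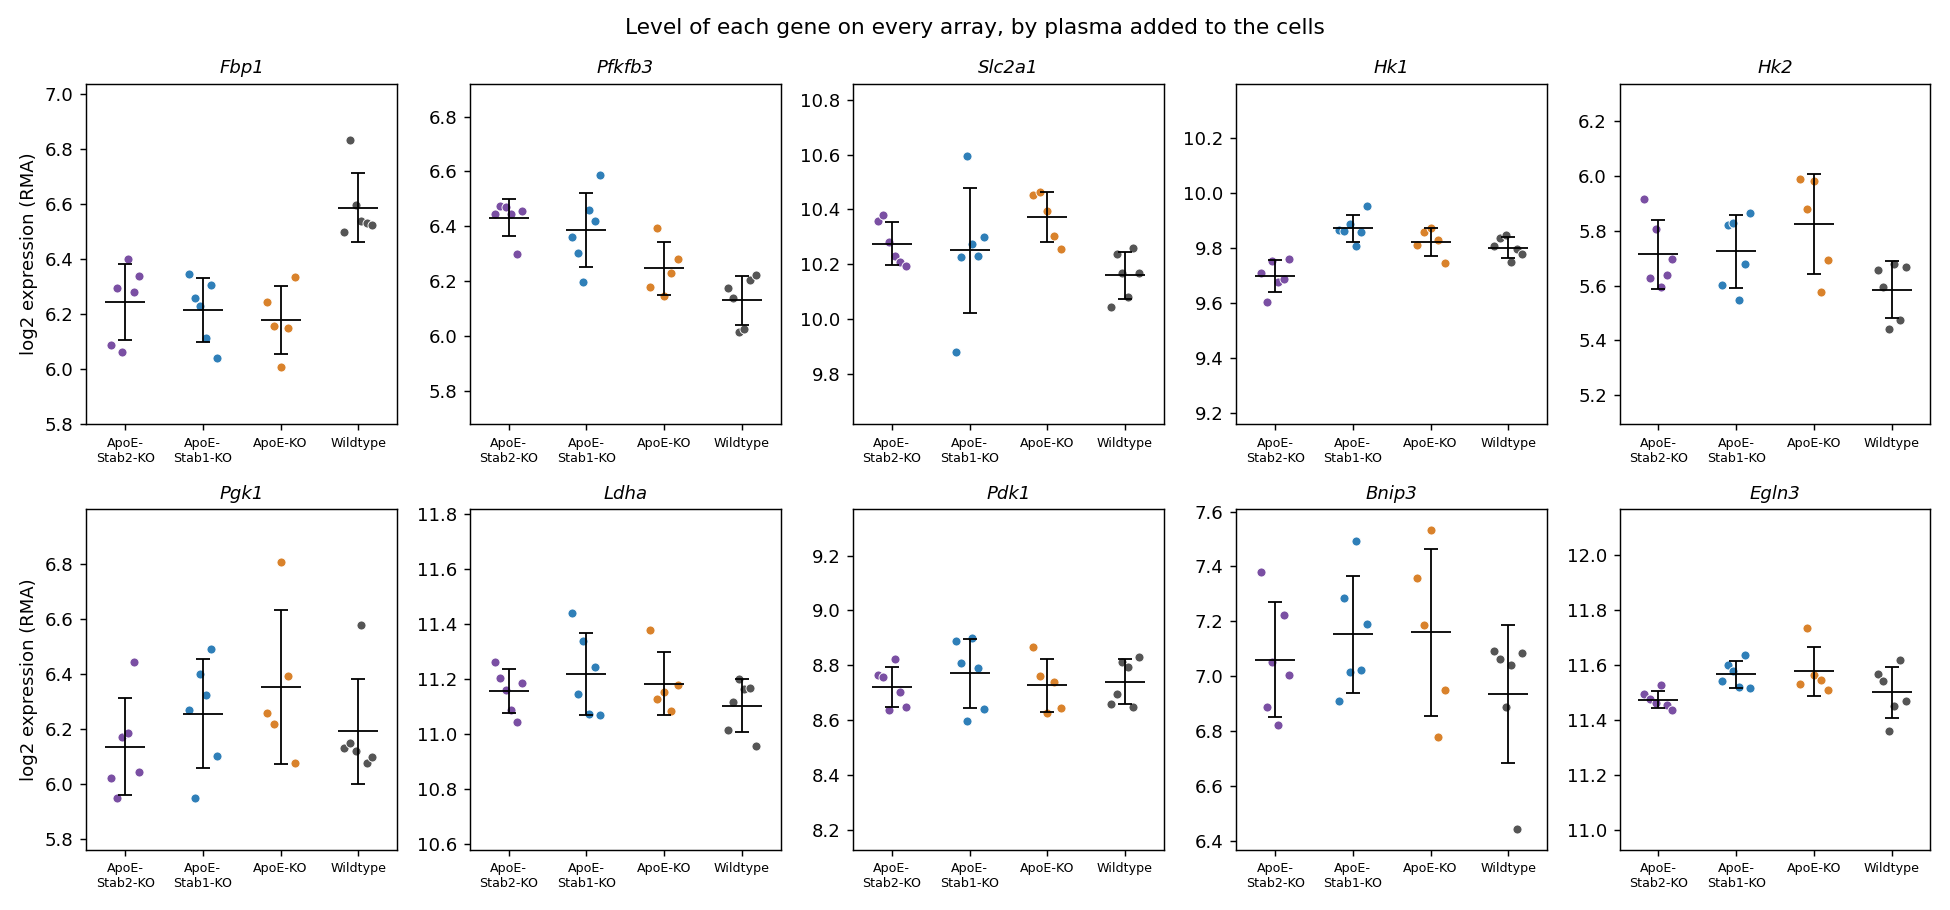
Log2 expression of the 10 members on each array. The vertical axis of each panel is RMA log2 expression, points are arrays of ApoE-Stab2-KO (n = 6), ApoE-Stab1-KO (n = 6), ApoE-KO (n = 5) and wildtype (n = 6) plasma, and lines give the mean and SD. The 17 arrays of knockout plasma lie below the 6 wildtype arrays for Fbp1, and the Pfkfb3 arrays of ApoE-Stab2-KO plasma lie above the wildtype ones.

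Fbp1 was lower in cells given each of the knockout plasmas. Its lowest, median and highest log2 values were 6.06, 6.29 and 6.40 in ApoE-Stab2-KO plasma and 6.04, 6.24 and 6.35 in ApoE-Stab1-KO plasma. The 5 ApoE-KO arrays read 6.24, 6.15, 6.00, 6.15 and 6.34, and the wildtype arrays had a lowest value of 6.50, a median of 6.54 and a highest value of 6.83. Every one of the 17 knockout-plasma arrays therefore lay below every wildtype array, and the 3 knockout groups overlapped one another. Across all genes, 0.0688% had all 17 arrays below the 6 wildtype arrays and 0.101% had them all above.

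Against wildtype plasma, Fbp1 fell by 0.34 ± 0.07 (SE) in ApoE-Stab2-KO plasma, a change of -21.2%, with a limma adjusted p of 0.041. It fell by 0.37 ± 0.07 in ApoE-Stab1-KO plasma (-22.8%, limma adjusted p = 0.0155). It fell by 0.41 ± 0.07 in ApoE-KO plasma (-24.7%, limma adjusted p = 0.00815). The 95% intervals ran from -0.49 to -0.20, from -0.52 to -0.23 and from -0.56 to -0.26, in the same order of plasmas. These comparisons share the 6 wildtype arrays and are not independent of one another. Fbp1 was among 8 genes, 0.0324% of those tested, that were called lower in all 3 comparisons.

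The call in ApoE-Stab2-KO plasma was the least firm. It remained without ApoE-Stab2-KO replicate 4 or wildtype replicate 1, and was lost without each of ApoE-Stab2-KO replicates 1, 2, 3, 5 and 6 and wildtype replicates 2, 3, 4, 5 and 6, with limma adjusted p-values between 0.035 and 0.137 over these 12 fits. It was also lost with trended, robust variances (0.0588) and with the arrays of both groups alone (0.078), and the ApoE-Stab1-KO call was likewise lost with the arrays of its 2 groups alone (0.0712). The ApoE-KO and ApoE-Stab1-KO calls were kept in each fit without 1 array. Between the knockout plasmas no difference in Fbp1 was detected. The difference was 0.07 for ApoE-Stab2-KO minus ApoE-KO (95% interval -0.09 to 0.22, limma adjusted p = 0.865), 0.04 for ApoE-Stab1-KO minus ApoE-KO (-0.12 to 0.19, 0.988) and 0.03 for ApoE-Stab2-KO minus ApoE-Stab1-KO (-0.12 to 0.18, 0.927).

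Pfkfb3, whose product drives phosphofructokinase, differed in the opposite direction and was called in ApoE-Stab2-KO plasma. Its lowest, median and highest log2 values were 6.30, 6.45 and 6.48 in ApoE-Stab2-KO plasma and 6.20, 6.39 and 6.59 in ApoE-Stab1-KO plasma. The ApoE-KO arrays read 6.18, 6.39, 6.15, 6.23 and 6.28, and the wildtype arrays had a lowest value of 6.01, a median of 6.16 and a highest value of 6.22. All 6 ApoE-Stab2-KO arrays lay above all 6 wildtype arrays, as they did for 0.636% of all genes, while the ApoE-Stab1-KO and ApoE-KO ranges both reached into the wildtype range. The order of the group means was ApoE-Stab2-KO (6.43), ApoE-Stab1-KO (6.39), ApoE-KO (6.25) and wildtype (6.13), and no neighbours in this order differed at an adjusted p under 0.05 in limma.

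Pfkfb3 rose by 0.30 ± 0.06 in ApoE-Stab2-KO against wildtype plasma, or 1.23-fold (limma adjusted p = 0.0244). In ApoE-Stab1-KO plasma it was 0.26 ± 0.06 higher and just missed the threshold (limma adjusted p = 0.0527). In ApoE-KO plasma the difference was 0.12 ± 0.06 (limma adjusted p = 0.534). ApoE-Stab2-KO minus ApoE-KO was 0.19, with a 95% interval of 0.06 to 0.31 but a limma adjusted p of 0.383, so a difference between these plasmas was not shown. The ApoE-Stab2-KO call was lost without each of ApoE-Stab2-KO replicates 1, 2, 3, 4 and 6 and wildtype replicates 2, 3 and 4 (limma adjusted p up to 0.0794) and with trended, robust variances (0.0592). The ApoE-Stab1-KO difference passed without ApoE-Stab1-KO replicate 3 (0.0231), over genes above the median level (0.033) and with array weights (0.0395).

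**Figure D2:**
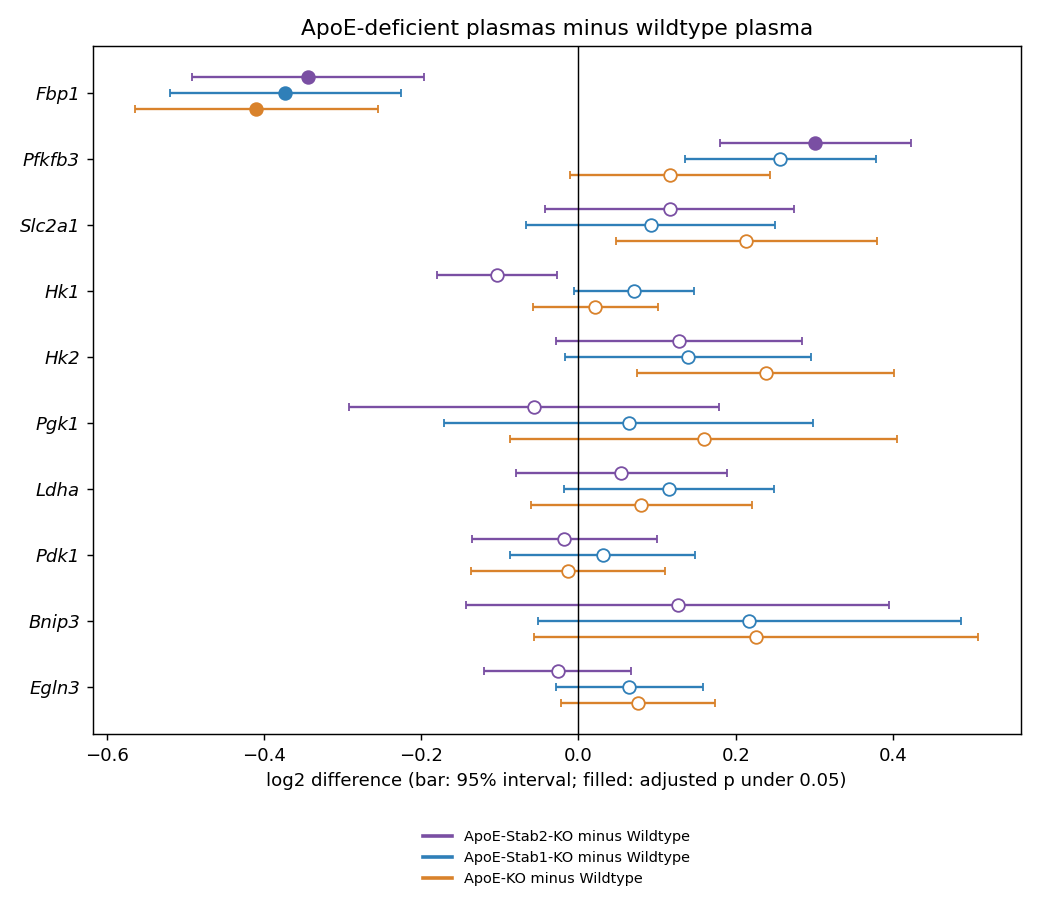
Differences of the members from wildtype plasma. The horizontal axis is the log2 difference of each knockout plasma minus wildtype, points are limma estimates with 95% intervals, colours are the 3 plasmas, and filled points passed an adjusted p under 0.05. Fbp1 is filled in all 3 comparisons, at -0.34, -0.37 and -0.41, and Pfkfb3 is filled in ApoE-Stab2-KO plasma, at 0.30.

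The first steps of glucose use were covered by Slc2a1, Hk1 and Hk2. Slc2a1 encodes GLUT1, the main glucose transporter of endothelium. It had lowest, median and highest values of 10.19, 10.26 and 10.38 in ApoE-Stab2-KO plasma and 9.88, 10.25 and 10.60 in ApoE-Stab1-KO plasma. The ApoE-KO arrays read 10.45, 10.46, 10.39, 10.30 and 10.26, and the wildtype arrays spanned 10.04 to 10.26 with a median of 10.17. Most ApoE-KO arrays were above the wildtype range, with the lowest of them inside it by a narrow margin, and the ApoE-Stab1-KO arrays reached past both ends of the wildtype range. ApoE-KO minus wildtype was 0.21 ± 0.08 (limma adjusted p = 0.313).

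Hk1 encodes the hexokinase that most tissues express at a steady level. Its lowest, median and highest values were 9.60, 9.70 and 9.76 in ApoE-Stab2-KO plasma and 9.81, 9.86 and 9.96 in ApoE-Stab1-KO plasma. On the ApoE-KO arrays Hk1 read 9.81, 9.86, 9.88, 9.83 and 9.74, and the wildtype arrays spanned 9.75 to 9.85 with a median of 9.80. The arrays of ApoE-Stab2-KO plasma all lay below those of ApoE-Stab1-KO plasma, which was so for 0.381% of all genes, while both groups overlapped wildtype. The difference, ApoE-Stab2-KO minus ApoE-Stab1-KO, was -0.17 ± 0.04 (95% interval -0.25 to -0.10), and its limma adjusted p of 0.0681 missed the threshold. ApoE-Stab2-KO minus ApoE-KO was -0.12 (limma adjusted p = 0.333) and ApoE-Stab2-KO minus wildtype was -0.10 (limma adjusted p = 0.392). Hk1 had the smallest residual SD of the 10 members, 0.0491.

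Hk2 encodes the inducible hexokinase, a HIF-responsive gene. Its values were 5.60, 5.67 and 5.92 (lowest, median and highest) in ApoE-Stab2-KO plasma and 5.55, 5.75 and 5.87 in ApoE-Stab1-KO plasma. On the ApoE-KO arrays it read 5.99, 5.88, 5.98, 5.58 and 5.69, and the wildtype arrays spanned 5.44 to 5.68 with a median of 5.63. All but 1 of the ApoE-KO arrays stood above the wildtype range. ApoE-KO minus wildtype was 0.24 ± 0.08 (limma adjusted p = 0.222), ApoE-Stab1-KO minus wildtype was 0.14 and ApoE-Stab2-KO minus wildtype was 0.13.

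The later steps of glycolysis and the fate of pyruvate were covered by Pgk1, Ldha and Pdk1. Pgk1 encodes phosphoglycerate kinase, an ATP-producing step. It ran from 5.95 to 6.44 in ApoE-Stab2-KO plasma and from 5.95 to 6.49 in ApoE-Stab1-KO plasma. It read 6.26, 6.22, 6.81, 6.39 and 6.08 on the ApoE-KO arrays and ran from 6.08 to 6.58 in wildtype plasma. All 4 ranges overlapped, and its largest difference, ApoE-Stab2-KO minus ApoE-KO, was -0.22 ± 0.12 (limma adjusted p = 0.664).

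Ldha encodes the lactate dehydrogenase subunit that favours lactate formation. It ran from 11.04 to 11.26 in ApoE-Stab2-KO, from 11.07 to 11.44 in ApoE-Stab1-KO, from 11.08 to 11.38 in ApoE-KO and from 10.96 to 11.20 in wildtype plasma. The largest of its 6 differences was 0.12 ± 0.06, in ApoE-Stab1-KO minus wildtype (limma adjusted p = 0.528). The annotation holds 3 pseudogenes named for Ldha and 3 for Pgk1, and transcripts of such copies could share probes with the parent genes.

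Pdk1 encodes a kinase that limits the use of pyruvate in the mitochondrion by inactivating pyruvate dehydrogenase. Its group means were 8.72 in ApoE-Stab2-KO, 8.77 in ApoE-Stab1-KO, 8.73 in ApoE-KO and 8.74 in wildtype plasma. Each of its 6 differences was between -0.05 and 0.04, and the 95% intervals against wildtype lay within -0.14 and 0.15.

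Bnip3 and Egln3 are hypoxia-responsive genes outside glycolysis. Bnip3 encodes a mitochondrial protein of mitophagy and cell death. It ran from 6.82 to 7.38 in ApoE-Stab2-KO plasma and from 6.91 to 7.49 in ApoE-Stab1-KO plasma. It read 7.36, 7.19, 7.53, 6.78 and 6.95 on the ApoE-KO arrays and ran from 6.44 to 7.09 in wildtype plasma. Its arrays scattered most, with a residual SD of 0.244, and ApoE-KO minus wildtype was 0.23 ± 0.14 (limma adjusted p = 0.615).

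Egln3 encodes the prolyl hydroxylase PHD3, which marks HIF subunits for degradation and is itself induced by them. It ran from 11.44 to 11.53 in ApoE-Stab2-KO, from 11.52 to 11.64 in ApoE-Stab1-KO, from 11.51 to 11.73 in ApoE-KO and from 11.36 to 11.62 in wildtype plasma. ApoE-Stab2-KO arrays overlapped the other double knockout and the ApoE-KO arrays at their top end, and ApoE-Stab2-KO minus ApoE-KO was -0.10 ± 0.05 (limma adjusted p = 0.58).

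As a set, the members gave few calls in each comparison. In ApoE-Stab2-KO against wildtype plasma, 1 of 10 members was called higher and 1 lower, against 0.113% and 0.0648% of all genes. In ApoE-Stab1-KO against wildtype plasma, 0 members were called higher and 1 lower, against 0.174% and 0.190% of all genes. In ApoE-KO against wildtype plasma, 0 members were called higher and 1 lower, against 0.340% and 0.190% of all genes. With 10 members, counts of 1 or 0 say which gene passed and little about the set.

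The 9 members other than Fbp1 had positive differences from wildtype in 5 of 9 cases in ApoE-Stab2-KO, 9 of 9 in ApoE-Stab1-KO and 8 of 9 in ApoE-KO plasma, against 49%, 51.8% and 51.2% of all genes. Their median differences were 0.05, 0.09 and 0.12, in the same order, while the median of all genes was 0.00 in each comparison. These counts describe the set, and the 3 comparisons share their wildtype arrays.

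Between the knockout plasmas, limma called 0 of the 10 members in each comparison. ApoE-Stab2-KO against ApoE-Stab1-KO plasma called 0.0486% of all genes, ApoE-Stab2-KO against ApoE-KO plasma 0.0243% and ApoE-Stab1-KO against ApoE-KO plasma 0.00405%. At an unadjusted p under 0.05, 1 member passed in ApoE-Stab2-KO against ApoE-Stab1-KO (11.0% of all genes), 3 in ApoE-Stab2-KO against ApoE-KO (8.36%) and 1 in ApoE-Stab1-KO against ApoE-KO (5.57%). In ApoE-Stab2-KO minus ApoE-KO, 1 of the 9 members other than Fbp1 was positive, Pfkfb3, and their median was -0.10, against a median of 0.00 and 48.1% positive differences over all genes.

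**Figure D3:**
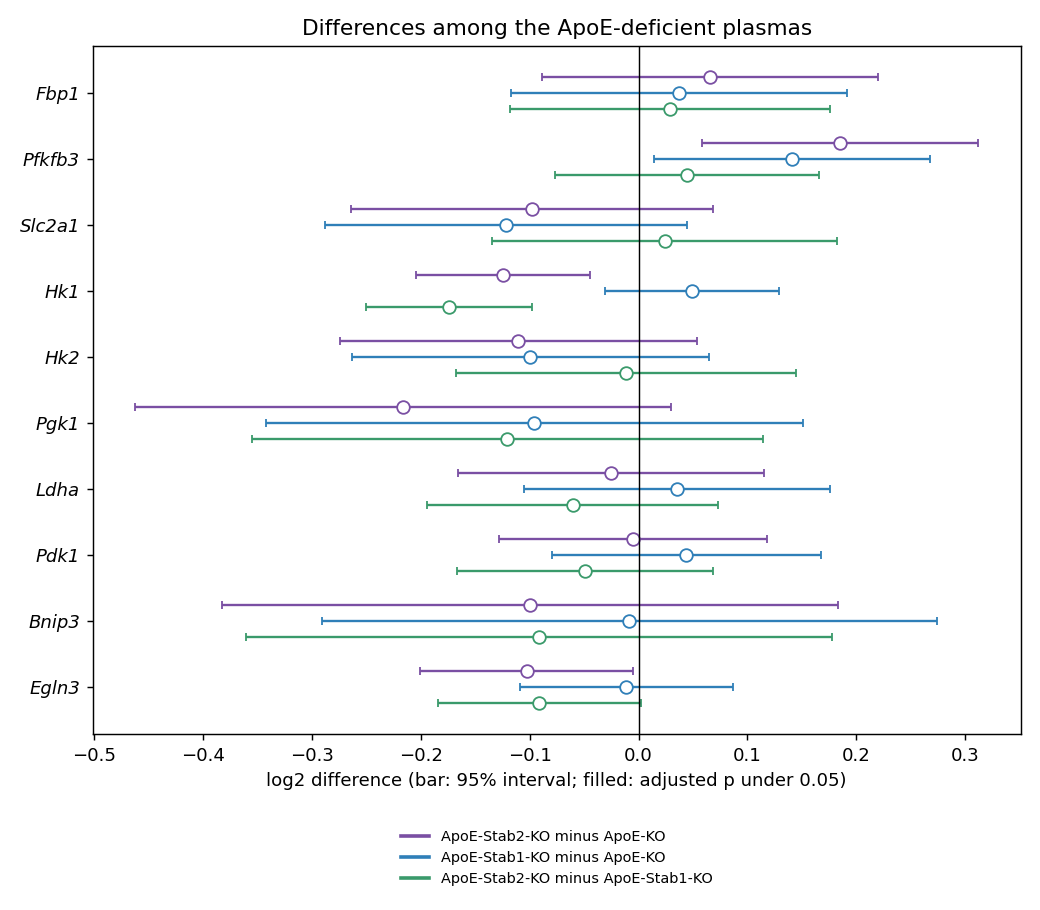
Differences of the members between the knockout plasmas. The horizontal axis is the log2 difference in each of the 3 comparisons, named in the legend, and points are limma estimates with 95% intervals, open where the adjusted p was 0.05 or more. All points are open, and the interval of Hk1 in ApoE-Stab2-KO minus ApoE-Stab1-KO runs from -0.25 to -0.10.

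The pathway neighbours of the members were read from wider gene lists, most of which also hold members. In 20 measured genes of 24 glycolytic enzymes, in 9 of 9 glucose and lactate transporters, in 10 of 10 genes of pyruvate dehydrogenase control, in 10 of 10 genes of the HIF pathway itself and in 6 of 7 genes of the pentose phosphate pathway, the number called by limma was 0 in all 6 comparisons and in the F-test. Several glycolytic and transporter genes lay below the median of all values, 4.33, among them Gapdh (2.90 to 3.67) and Slc2a3 (3.01 to 3.31). Whether their probe sets could show a change was not tested. At an unadjusted p under 0.05 in the F-test, where 11.9% of all genes passed, the 5 lists had 3, 1, 2, 1 and 1 genes, in the order given. The 3 glycolytic genes included the members Hk1 and Hk2. Outside the members, the lists held 16, 8, 9, 9 and 6 measured genes, in the same order. Beside Hk1, the glycolytic enzyme of smallest F-test p was the phosphofructokinase gene Pfkp (limma adjusted p = 0.124), whose differences from wildtype were 0.02 in ApoE-Stab2-KO, 0.17 in ApoE-Stab1-KO and 0.20 in ApoE-KO plasma. The lactate transporter gene Slc16a1 was 0.14, 0.14 and 0.18 above wildtype in the same order (F-test, limma adjusted p = 0.251). Hif1a and Epas1, which encode the oxygen-regulated HIF subunits, had group means between 10.52 and 10.66 and between 11.12 and 11.27, with limma adjusted F-test p-values of 0.31 and 0.453. In the remaining lists the smallest adjusted F-test p belonged to the pyruvate dehydrogenase phosphatase gene Pdp2 (0.32) and its complex component Pdhx (0.393), and to the pentose phosphate genes Pgls (0.298) and Tkt (0.463), all from limma.

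Of 4 measured genes of 5 that control fructose-2,6-bisphosphate, Pfkfb3 was the 1 that passed a test, beside 0.546% of all genes called by the F-test. The other 3, which encode further forms of the bifunctional enzyme or a phosphatase of the same sugar, had median differences from wildtype of -0.04, -0.02 and 0.04 in ApoE-Stab2-KO, ApoE-Stab1-KO and ApoE-KO plasma.

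Of 7 gluconeogenic genes, all measured, Fbp1 and its paralogue Fbp2 passed the F-test, which called 0.546% of all genes. At an unadjusted p under 0.05 in the F-test there were 4 of 7, beside 11.9% of all genes. In each knockout plasma 4 of the 7 genes were above wildtype. The median differences were 0.05 in ApoE-Stab2-KO, 0.03 in ApoE-Stab1-KO and 0.08 in ApoE-KO plasma, so by this count the list did not fall as a group. The count includes genes of low level. Pck1 (group means up to 3.98) and G6pc (up to 3.58) lay below the median of all values, 4.33, and the signs of their differences say little. Fbp2 encodes the muscle form of fructose-1,6-bisphosphatase and is the protein-coding gene next to Fbp1 on chromosome 13. Its lowest, median and highest values were 6.69, 6.72 and 6.93 in ApoE-Stab2-KO plasma and 6.38, 6.60 and 6.91 in ApoE-Stab1-KO plasma. The ApoE-KO arrays read 6.90, 6.85, 6.58, 6.75 and 6.98, and the wildtype arrays spanned 6.86 to 7.28 with a median of 7.12. One wildtype array, at 6.86, lay within the knockout ranges, and the other wildtype arrays lay above all knockout arrays. Fbp2 fell by 0.46 ± 0.08 in ApoE-Stab1-KO against wildtype plasma (limma adjusted p = 0.00898), a call kept without each array but lost with both groups' arrays alone (0.084). ApoE-Stab2-KO minus wildtype was -0.34 (0.119) and ApoE-KO minus wildtype was -0.29 (0.159), and its F-test p was 0.0258, all adjusted in limma. The F-test call was lost without ApoE-Stab1-KO replicate 6 or any of wildtype replicates 2, 3, 4, 5 and 6 (up to 0.0824), and the ApoE-Stab2-KO difference passed with array weights (0.0215). Whether the Fbp1 and Fbp2 probe sets share sequence was not tested.

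Among 38 measured genes of 39 that respond to HIF, a list that holds the 9 members other than Fbp1, limma called 3 higher and 0 lower in ApoE-Stab2-KO, 1 higher and 0 lower in ApoE-Stab1-KO and 2 higher and 0 lower in ApoE-KO against wildtype plasma, beside 0.113%, 0.174% and 0.340% of all genes called higher. At an unadjusted p under 0.05 in either direction, 10 of 38 passed in each of these comparisons, beside 8.49%, 11.3% and 10.5% of all genes. Of these, Hk1 (-0.10) and Ak4 (-0.21) were lower in ApoE-Stab2-KO plasma. Ndrg1 (-0.13), Kdm3a (-0.15) and Flt1 (-0.13) were lower in ApoE-Stab1-KO plasma, and Ddit4 (-0.18) and Flt1 (-0.11) in ApoE-KO plasma. The others that passed were higher. The median differences over the 38 genes were 0.05, 0.07 and 0.07, in the same order of plasmas. The list was drawn up with earlier results of these data known, and the 3 comparisons share their wildtype arrays. Its counts therefore describe the list and are not independent of one another. The 3 called in ApoE-Stab2-KO plasma were Vegfa, Angptl4 and Pfkfb3, the 1 in ApoE-Stab1-KO plasma was Vegfa, and the 2 in ApoE-KO plasma were Vegfa and Ero1a. In the 3 comparisons between knockout plasmas limma called 0, and at an unadjusted p under 0.05 there were 7 of 38 in ApoE-Stab2-KO against ApoE-Stab1-KO (11.0% of all genes), 6 in ApoE-Stab2-KO against ApoE-KO (8.36%) and 5 in ApoE-Stab1-KO against ApoE-KO plasma (5.57%).

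Vegfa encodes the vascular endothelial growth factor. It had lowest, median and highest values of 7.96, 8.04 and 8.15 in ApoE-Stab2-KO and 7.86, 7.93 and 8.13 in ApoE-Stab1-KO plasma. In ApoE-KO plasma it read 8.09, 7.96, 8.02, 7.94 and 7.83, and the wildtype arrays spanned 7.60 to 7.77 with a median of 7.72. All knockout-plasma arrays lay above all wildtype arrays, which was so for 0.101% of all genes. Vegfa rose by 0.35 ± 0.05 in ApoE-Stab2-KO (limma adjusted p = 0.00222), by 0.25 ± 0.05 in ApoE-Stab1-KO (0.0264) and by 0.26 ± 0.05 in ApoE-KO plasma (0.0251). The ApoE-Stab2-KO call was kept in each fit without 1 array. The ApoE-Stab1-KO call was lost without ApoE-Stab1-KO replicate 4 or wildtype replicates 1, 4 or 6 (up to 0.077) and with both groups' arrays alone (0.124), and the ApoE-KO call without ApoE-KO replicates 1, 2 or 3 or wildtype replicates 1 or 6 (up to 0.0814) and with both groups' arrays alone (0.0634).

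Angptl4 encodes a secreted inhibitor of lipoprotein lipase that responds to fatty acids through PPAR receptors as well as to hypoxia. It averaged 10.37 ± 0.05 in ApoE-Stab2-KO (SD, n = 6), 10.26 ± 0.05 in ApoE-Stab1-KO (n = 6), 10.28 ± 0.17 in ApoE-KO (n = 5) and 10.04 ± 0.06 in wildtype plasma (n = 6). The ApoE-KO arrays read 10.13, 10.32, 10.35, 10.51 and 10.09, and the lowest of them lay just inside the top of the wildtype range, at 10.09. Angptl4 rose by 0.34 ± 0.06 in ApoE-Stab2-KO plasma (limma adjusted p = 0.00546) and differed by 0.22 in ApoE-Stab1-KO (0.0792) and 0.24 in ApoE-KO plasma (0.0574). The ApoE-KO difference passed without ApoE-KO replicate 1 (0.0368) or 5 (0.0152), over genes above the median level (0.0347), with array weights (0.0342) and with trended, robust variances (0.0284), and the ApoE-Stab1-KO difference passed with the last of these (0.045).

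Ero1a was listed under its older symbol Ero1l, which was replaced by hand with the newer symbol of the same Entrez gene. It encodes an oxidase of disulfide formation in the endoplasmic reticulum. It averaged 10.33 ± 0.07 in ApoE-Stab2-KO, 10.33 ± 0.08 in ApoE-Stab1-KO, 10.45 ± 0.14 in ApoE-KO and 10.18 ± 0.07 in wildtype plasma (SD). It rose by 0.27 ± 0.06 in ApoE-KO plasma (limma adjusted p = 0.0324). That call was lost without ApoE-KO replicates 1, 2 or 3 or wildtype replicates 1, 3, 4 or 5 (up to 0.1) and with both groups' arrays alone (0.114).

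**Figure D4:**
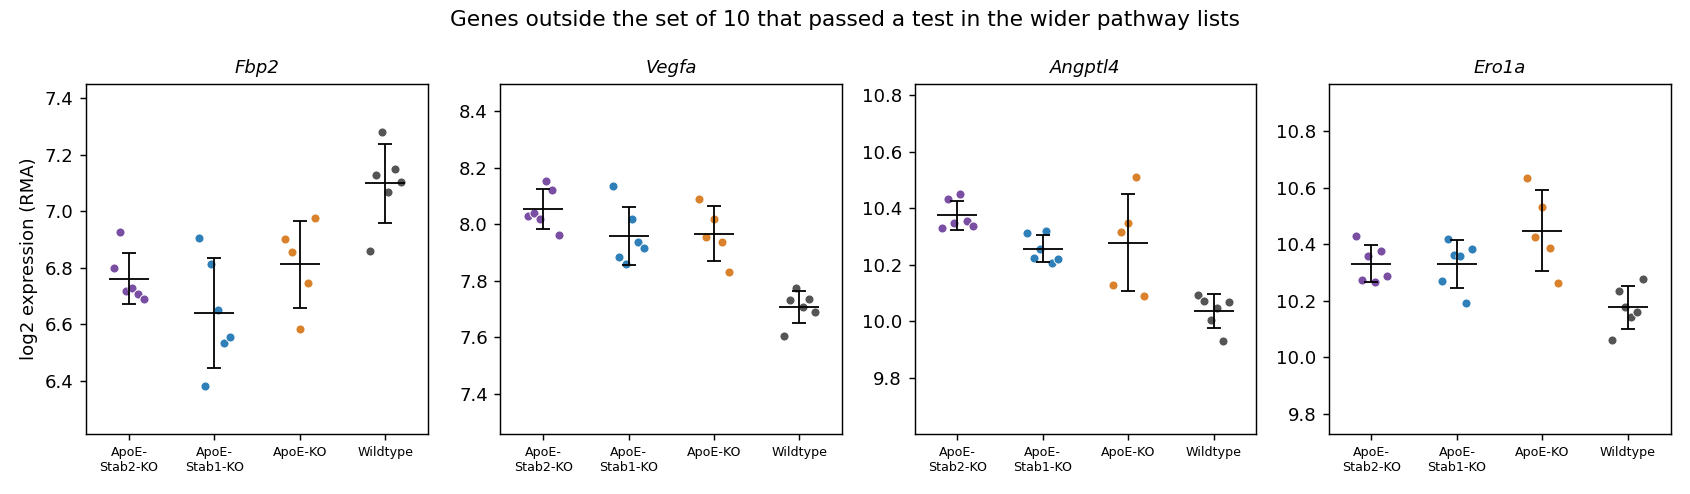
Log2 expression of Fbp2, Vegfa, Angptl4 and Ero1a on each array. The vertical axis is RMA log2 expression, points are arrays of ApoE-Stab2-KO (n = 6), ApoE-Stab1-KO (n = 6), ApoE-KO (n = 5) and wildtype (n = 6) plasma, and lines give the mean and SD. For Vegfa the wildtype arrays, at most 7.77, lie below all others, as for 0.101% of all genes.

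The members varied among themselves from array to array with no common course. Over 23 arrays and after removing group means, the Pearson correlations of the 45 pairs of members ran from -0.48 to 0.61 with a median of -0.01, and 22 were positive. These points share one culture system and one normalization, and genes of a common array are not independent. Over all arrays with group differences included, the genes most like Fbp1 were Smad1 (r = 0.82), Rassf3 (0.78) and Dll4 (0.78), out of 19962 genes searched. Those most like Pfkfb3 were Tinagl1 (0.70), Klhdc8a (0.70) and Cd8a (0.70). After group means were removed, r with Fbp1 was 0.43, 0.68 and 0.29, and r with Pfkfb3 was 0.37, 0.26 and 0.60, in the same orders. Cd8a had a mean level of 3.34, below the median of all values, 4.325.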

How the data were processed

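The deposited values of the 23 arrays are log2 expression per probe set, made by the authors with RMA, per the submitters' processing notes. Neither its version nor a genome build is stated there. Background correction and quantile normalization in RMA give every array the same distribution, so that a shift common to all genes could not be seen. The platform's probe annotation gave 1 symbol to 24705 of 25428 probe sets and none to 723, and 24704 genes were tested. Of 146 genes on the lists used, 136 were measured, and the others were not analysed here.

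Group means of all 23 arrays were fitted in limma 3.58.1 (lmFit and eBayes, R 4.3.3, 19 residual degrees of freedom), with two-sided tests and Benjamini-Hochberg adjustment over all genes. Intervals are 95% and unadjusted. The number of arrays limits the precision. Fits were checked on simulated data for ApoE-KO minus wildtype, with 50 genes changed at each size. At log2 changes of 0.2, 0.3, 0.4 and 0.6, limma called 28%, 54%, 82% and 94% of them. Small differences that were not called are thus not shown to be absent. Sequences were searched in Python 3.11.15, and plots used matplotlib 3.10.9.

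The members and gene lists were chosen with earlier results of these data known. Named genes were the 10 members, list genes called in a comparison or by the F-test and otherwise the 2 of smallest F-test p in a list, and, by Pearson r over the arrays, the 3 genes most like Fbp1 and most like the other member of smallest F-test p. Single markers, and the HIF-responsive genes given as lower, were named after their values were seen. Alternatives were a repeated quantile normalization, median centring, separate probe sets, genes above the median level only, trended and robust variances, array weights, a replicate block, the compared groups alone and each array left out.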

Additional observations from a re-analysis of the deposited data

Results flagged for a closer look

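In 5 of the 40 combinations of a member and a plasma, 1 array stood apart from the rest of its group by Dixon's test, where chance gives about 1 in 20. Pfkfb3 on ApoE-Stab2-KO replicate 5 read 6.2988, with the nearest array of the group at 6.4434. Egln3 on ApoE-KO replicate 2 read 11.7344, with the next at 11.5645. The others were wildtype arrays. Fbp1 read 6.833 on replicate 2, with the next at 6.5967, Pgk1 read 6.5791 on replicate 4, with the next at 6.1504, and Bnip3 read 6.4443 on replicate 5, with the next at 6.8867. Without wildtype replicate 2, the limma adjusted p of Fbp1 in ApoE-Stab2-KO against wildtype plasma was 0.104.

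The Hk1 differences of the double knockouts from wildtype plasma had opposite signs, and neither was called. They were -0.1032 in ApoE-Stab2-KO (limma adjusted p = 0.392) and 0.0706 in ApoE-Stab1-KO plasma (limma adjusted p = 0.485). Every ApoE-Stab2-KO array lay below the wildtype mean of 9.8021 and every ApoE-Stab1-KO array above it, the lowest at 9.8066. The share of all genes with such a split was not counted. ApoE-Stab2-KO minus ApoE-Stab1-KO was -0.1738, and in limma its adjusted p of 0.0681 missed the threshold, with a range of 0.0509 to 0.206 over the alternatives and 0.0533 to 0.157 without each array.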

How the results depend on the processing

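Of 784 values recomputed under alternatives, 737 were taken as the same, 28 lost and 15 gained a call or count, and 4 reversed. A difference or F-test was the same where direction and side of the threshold were kept. A count was the same where it changed little in proportion. In ApoE-Stab2-KO minus wildtype, 34 to 63 called genes were thus taken as the same as 44. The cause of the changes was not tested. With genes above the median level only, limma called 2 genes in ApoE-Stab2-KO minus ApoE-KO and 151 in ApoE-Stab1-KO minus wildtype, 2 of them members. With trended, robust variances it called 2 genes in ApoE-Stab1-KO minus ApoE-KO, 21 in ApoE-Stab2-KO minus ApoE-Stab1-KO, 0 members in ApoE-Stab2-KO minus wildtype and 1 member by F-test. With array weights it called 212 genes in ApoE-KO minus wildtype, 18 in ApoE-Stab2-KO minus ApoE-KO and 2 members in ApoE-Stab1-KO minus wildtype, and 3 small differences reversed, Ldha (-0.0124) and Bnip3 (0.0629) in ApoE-Stab1-KO minus ApoE-KO and Slc2a1 (-0.0014) in ApoE-Stab2-KO minus ApoE-Stab1-KO. With the arrays of both groups alone, where fewer arrays enter, the genes called were 80 in ApoE-KO minus wildtype, 0 in ApoE-Stab1-KO minus ApoE-KO, 1 in ApoE-Stab2-KO minus ApoE-KO, 4 in ApoE-Stab2-KO minus ApoE-Stab1-KO and 21 in ApoE-Stab1-KO minus wildtype; the members called against wildtype were 0 in ApoE-Stab1-KO and 1 in ApoE-Stab2-KO. Correlations of deviations over all genes gave no clear pairing of arrays by replicate number. For 33 same-number pairs they were between -0.0958 and 0.1065, with a median of 0.0121 against -0.0031 for other pairs between groups. Of 23 arrays, 6 correlated best with an array of their own number. Whether arrays of equal number shared a batch or plasma was not tested. With the replicate block, limma called 0 genes in ApoE-Stab1-KO minus ApoE-KO and in ApoE-Stab2-KO minus ApoE-KO, 1 member in ApoE-Stab2-KO minus wildtype (Fbp1 had an adjusted p of 0.0723) and 88 genes by F-test. The block also ended calls of Vegfa in ApoE-Stab1-KO (0.0605) and ApoE-KO (0.0788), of Ero1a in ApoE-KO (0.0516) and of Fbp2 by F-test (0.0906), and reversed Pdk1 in ApoE-Stab2-KO minus ApoE-KO (0.0024).

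Leaving out each array in turn, limma called 20 to 41 genes in ApoE-Stab2-KO, 54 to 124 in ApoE-Stab1-KO and 55 to 109 in ApoE-KO minus wildtype, 8 to 37 in ApoE-Stab2-KO minus ApoE-Stab1-KO, 0 to 12 in ApoE-Stab2-KO minus ApoE-KO, 0 to 2 in ApoE-Stab1-KO minus ApoE-KO and 87 to 197 by F-test. Members called were 0 to 2 in ApoE-Stab2-KO and 1 to 2 in ApoE-Stab1-KO minus wildtype, and 1 to 2 by F-test. Of 1336 such values, 29 reversed, all of them differences called in no fit with all arrays. Their ranges were -0.1184 to 0.0207 (Pgk1) and -0.038 to 5e-04 (Pdk1) in ApoE-Stab2-KO minus wildtype, -0.0475 to 0.0127 (Pdk1) in ApoE-KO minus wildtype, -0.05 to 0.093 (Slc2a1), -0.0518 to 0.017 (Hk2) and -0.0065 to 0.0656 (Fbp1) in ApoE-Stab2-KO minus ApoE-Stab1-KO, -0.05 to 0.0231 (Ldha) and -0.0306 to 0.0296 (Pdk1) in ApoE-Stab2-KO minus ApoE-KO, and, in ApoE-Stab1-KO minus ApoE-KO, -0.0093 to 0.0837 (Ldha), -0.1643 to 0.0188 (Pgk1), -0.1042 to 0.0842 (Bnip3), -0.0285 to 0.0282 (Egln3) and -0.0063 to 0.0765 (Fbp1).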

Other observations

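Of the 45 pairs of members, Hk2 and Bnip3 had the highest correlation of deviations from group means (23 arrays, Pearson r = 0.61, permutation p = 0.00596, adjusted over the pairs 0.268; Spearman rho = 0.562, permutation p = 0.0157, adjusted 0.323). Without the 2 arrays farthest from the median of Hk2, r was 0.48. Within groups r was 0.733 in ApoE-Stab2-KO, -0.146 in ApoE-Stab1-KO, 0.971 in ApoE-KO and 0.737 in wildtype plasma, with 5 or 6 arrays each. After adjustment 0 of the 45 pairs passed.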
